A study of Mus musculus with 12 samples.

Results

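The 25 genes described here were chosen from 55335 quantified mouse genes because RNA-seq counted them in wild-type dendritic cells and hardly at all once CTCF had been depleted. A gene was taken when its RSEM expected count, an estimated number of reads, was at least 60 in each of 3 WT libraries and at most 15 in each of 3 KO libraries. Among 10198 genes that reached 60 in every WT library, 27 also met the KO limit, of which C1ra and Ereg were left aside by name. The 25 that remained are 0.245% of those 10198. The low level in KO is therefore how the genes were found, and it is given below as a level and not tested. "Switched off" is a name for that rule: the mean in KO was 2.49% to 15.3% of the mean in WT over 24 of the genes (median 7.33%), so these were still counted at a low level, while Cd207 stood at the counting floor of 3 reads or fewer in every KO library.

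CTCF is a zinc finger protein that binds insulator sequences and, together with the cohesin ring, holds the bases of chromatin loops and the borders of topologically associating domains. Loops of this kind can bring a promoter close to a distant enhancer, and a border can keep an enhancer from a neighbouring gene. Dendritic cells take up antigen, sense microbes through Toll-like receptors and lectins, and present peptides to T cells.

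RNA came from BMDCs, dendritic cells grown from bone marrow of male and female C57BL/6 mice, 8 to 12 weeks old, for 6 days with GM-CSF, from which floating CD11c+ cells were selected with beads. WT cultures carried CreER alone and KO cultures carried CreER;CTCF fl/fl, in which 4-OH tamoxifen added on the first day of culture lets a Cre driven by the ubiquitous Rosa26 locus delete the floxed Ctcf allele. Each genotype was measured without treatment (WT and KO) and after LPS at 100 ng/ml for 3 h (WTL and KOL), with 3 libraries per group. LPS is a bacterial cell wall component sensed by TLR4. The sources do not say plainly whether WT cultures also received 4-OH tamoxifen, so an effect of the drug and an effect of the deletion cannot be told apart where they did not, nor do they say whether untreated and LPS-treated libraries of one number shared a mouse. P-values therefore measure the spread between these libraries.

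Libraries held 12769767 to 16586291 rounded counts, and normalized counts below are counts brought to one library size with edgeR's TMM factors. The targeted gene followed the labels: Ctcf had 1051, 987 and 975 normalized counts in WT, 569.7, 562 and 516 in KO, 886, 817 and 745 in WTL and 563, 530.0 and 526 in KOL, with no overlap between the genotypes. RSEM counts reads over all exons, so this value does not separate transcripts with and without the floxed part. Several marker lists of cell types differed between WT and KO. Of 8 dendritic cell markers, 3 were lower in KO than in WT (Flt3, H2-Ab1 and Ccr7, edgeR) and 2 were higher (Itgax and Batf3). The sum of the 8 was 86392 to 90658 normalized counts in WT and 82341 to 83985 in KO. The sum of 4 monocyte markers (0 lower, 2 higher) was 7506 to 8524 in WT and 18290 to 18953 in KO, and that of 9 macrophage markers (4 lower, 3 higher) was 22489 to 24495 in WT and 29877 to 31101 in KO. The 4 endothelial markers (1 lower, 2 higher) summed to 1219 to 1478 in WT and 2054 to 2093 in KO, and the 6 stromal markers (1 of 2 tested higher) to 30.3 to 38.6 in WT and 246 to 263 in KO. Single genes made up most of these sums, as means in WT and KO: Cd74 (52906 and 46611), Ccr2 (6563 and 16194), Csf1r (14233 and 23576), Vwf (1338 and 2043) and Pdgfrb (28.1 and 250). Among macrophage markers Adgre1, Mertk, Fcgr1 and Marco were lower in KO, and Csf1r, C1qa and C1qc higher. Among endothelial markers Pecam1 was lower, and Kdr and Vwf higher. After LPS the macrophage sum had the opposite order, at 20201 to 24204 in WTL and 14214 to 17787 in KOL. The stromal sums overlapped, at 166 to 356 in WTL and 165 to 280 in KOL. So did the monocyte sums (5876 to 9945 and 8143.5 to 11813) and the dendritic cell sums (120304 to 166926 and 148674 to 204874). The endothelial sum was again higher, at 1148 to 1419 in WTL and 1580 to 1947 in KOL. Summed B cell markers stayed at or below 33.0 and erythroid markers at or below 1.35 in every library. The part of these differences in the results below was not tested. Because these are bulk libraries, fewer cells of a type and less RNA per cell cannot be told apart.

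Of the 25 genes, 22 are annotated as protein coding. Gm20658 is an antisense transcript, Mrpl23-ps1 is a processed pseudogene, and Gm43844 is a gene model of the class TEC, which still awaits experimental evidence. The genes lie on 12 chromosomes, with 4 each on chromosomes 5 and 6 and 3 on chromosome 12, and 18 are on the plus strand. Positions given below are those of GENCODE M21 on mm10. Their gene spans had a median of 17.9 kb, against 19.4 kb over the 13999 tested genes with a position. Per transcript length, their mean TPM in WT ran from 0.99 for Gm43844 to 37.1 for Mgst2, with a median of 3.24, below the median of 11.6 over the 14008 genes tested.

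Promoter sequence was read from RefSeq (GRCm38.p6, the mm10 assembly) for the 21 genes with an entry, over 300 bases from 250 before to 50 after each annotated start. Gm43844, Icos, Mrpl23-ps1 and R3hcc1 had none. The median GC content of these windows was 51.3%, and that of 10112 tested genes was 60.3%. The CTCF core, the words CCA, AG and GGC with 2 free letters in each gap, was searched on both strands and was present in 1 of the 21 genes, Ppm1j, against 3.29% of the tested genes with a promoter entry. This match, 57 bases before the start, is shown in capitals because it was the single CTCF-like run found:
Ppm1j, chr3:104780959-104781050, plus strand: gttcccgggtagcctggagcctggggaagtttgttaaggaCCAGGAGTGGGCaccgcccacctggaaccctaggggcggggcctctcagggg

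The other motifs were searched in the same way. A STAT element, TTCNNNGAA, stood in 5 of 21 genes (B3glct, Gm20658, Mef2c, Mgst2 and Tlr1) against 8.33% of tested genes. STAT5, which binds such elements, carries the GM-CSF signal on which these cultures depend. The runs that lie before a start are printed for the gene of highest WT count, for B3glct, for Mef2c and for Tlr1, with the STAT element in capitals and, in Mef2c, also the PU.1 word GAGGAA:
Gm20658, chr12:116111813-116111901, minus strand: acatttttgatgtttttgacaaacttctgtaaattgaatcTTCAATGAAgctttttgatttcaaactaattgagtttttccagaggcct
B3glct, chr5:149678014-149678102, plus strand: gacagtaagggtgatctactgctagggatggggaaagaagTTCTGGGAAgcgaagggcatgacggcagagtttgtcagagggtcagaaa
Mef2c, chr13:83503837-83503925, plus strand: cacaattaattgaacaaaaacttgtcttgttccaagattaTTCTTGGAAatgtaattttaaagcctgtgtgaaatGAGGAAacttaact
Tlr1, downstream start, chr5:64932879-64932949, minus strand: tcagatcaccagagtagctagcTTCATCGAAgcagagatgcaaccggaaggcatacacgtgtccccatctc

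PU.1 is a master regulator of myeloid cells. Its short word GAGGAA stood in 6 of 21 genes (Cd207, F13a1, Flt1, Flvcr2, Mef2c and Tlr1), near the 31.0% of tested genes. It is shown for the pattern-recognition receptors Tlr1 and Cd207, and in Cd207 the capitals are its reverse complement:
Tlr1, upstream start, chr5:64933559-64933621, minus strand: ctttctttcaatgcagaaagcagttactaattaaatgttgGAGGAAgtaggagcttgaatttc
Cd207, chr6:83677930-83678015, minus strand: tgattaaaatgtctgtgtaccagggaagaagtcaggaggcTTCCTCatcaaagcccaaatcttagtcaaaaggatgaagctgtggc

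The interferon element, 2 GAAA words with 2 free letters between them, stood in 1 gene, Asgr2, against 4.05% of tested genes, and the kB element, GGG and TTTCC with 2 free letters between them, to which NF-kB binds after LPS, stood in none of the 21 against 2.14%. A match describes letters in a window and is not a binding site. Absence says only that these letters are not in these windows. The Asgr2 run, with the reverse complement of the element in capitals, is:
Asgr2, chr11:70092532-70092621, plus strand: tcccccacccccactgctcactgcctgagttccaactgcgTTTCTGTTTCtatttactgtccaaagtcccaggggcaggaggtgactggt

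The first question was whether the genes were still low in CTCF-deficient cells after LPS. The WTL and KOL libraries had no part in choosing the genes, so here a test was made. In KOL against WTL, 24 of the 25 genes were lower at an adjusted p under 0.05 and a fold above 1.5 (edgeR quasi-likelihood test), whereas 12.5% of all 14008 genes tested were lower by the same rule. None of the 25 was higher, against 12.5% of all genes. In 24 of them every KOL library lay below every WTL library, against 24.4% of all genes. Without the fold cutoff the count was also 24, against 23.3% of all genes. The median log2 fold change was -2.94 over the 25 genes and -0.03 over all genes tested. The exception was Flvcr2, at -0.32 (SE 0.34, edgeR adjusted p = 0.486). The plot of fold changes shows the spread over the genes.

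**Figure D1:**
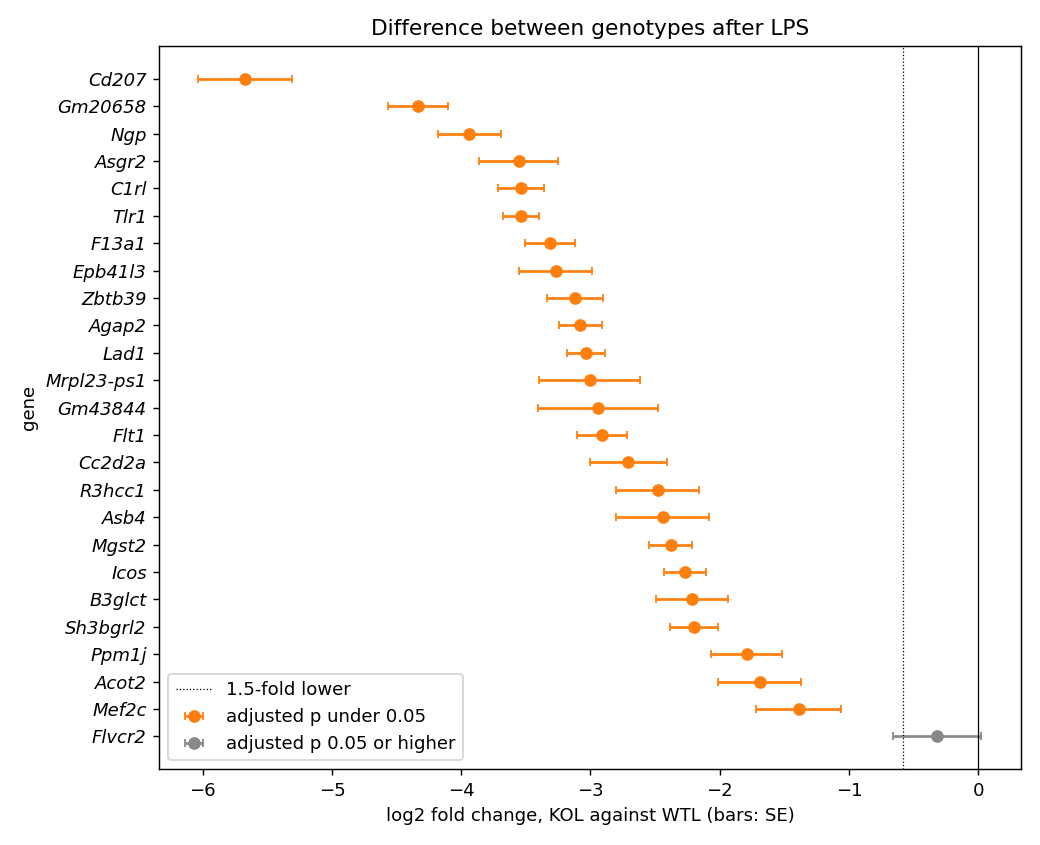
Log2 fold change of each of the 25 genes in KOL against WTL (x axis) from edgeR, with bars for the SE and genes ordered by size. The values run from -5.67 for Cd207 to -0.32 for Flvcr2, and orange points, 24 of them, passed the test.

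The second question was whether LPS brought the genes back in KO cells. Every KOL library lay above every KO library in 12 genes, against 34.9% of all genes tested, and below in 2 genes (Gm20658 and Asb4), against 36.3%. In the other 11 the groups overlapped. The rule took high WT and low KO counts, which by itself favours KOL above KO and WTL below WT. With TPM, which shifts the median log2 ratio of KOL to KO over all genes by -0.39, the 12 became 6, since F13a1, Flvcr2, Icos, Mef2c, Ppm1j and Zbtb39 then overlapped. With scaling by total counts they became 10, without Flvcr2 and Zbtb39. The KOL mean came to at least 50% of the WTL mean in 1 gene, Flvcr2, a level that 92.4% of all genes tested reached. On TPM there were 2, Flvcr2 (78.8%) and B3glct (52.7%). The KOL mean came to at least 50% of the untreated WT mean in 2 genes, Icos and Lad1, against 85.3% of all genes tested. It came to at least 25% in 6, now with Flvcr2, Mef2c, Ppm1j and Tlr1, against 95.6%. On TPM these shares were lower: 51.7% in Lad1, 49.3% in Icos, 27.0% in Ppm1j, 19.9% in Tlr1, 19.5% in Flvcr2 and 13.6% in Mef2c. In WT cells, WTL lay below WT without overlap in 11 (33.3% of all genes) and above in 9 (31.8% of all genes). With scaling by total counts or with TPM, 5 genes in place of 9 lay above, since F13a1, Flt1, Ngp and Ppm1j no longer did, and these scalings shift the median log2 ratio of WTL to WT over all genes by -0.53 and -0.46. In place of 11, 14 genes then lay below on total counts and 13 on TPM.

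**Figure D2:**
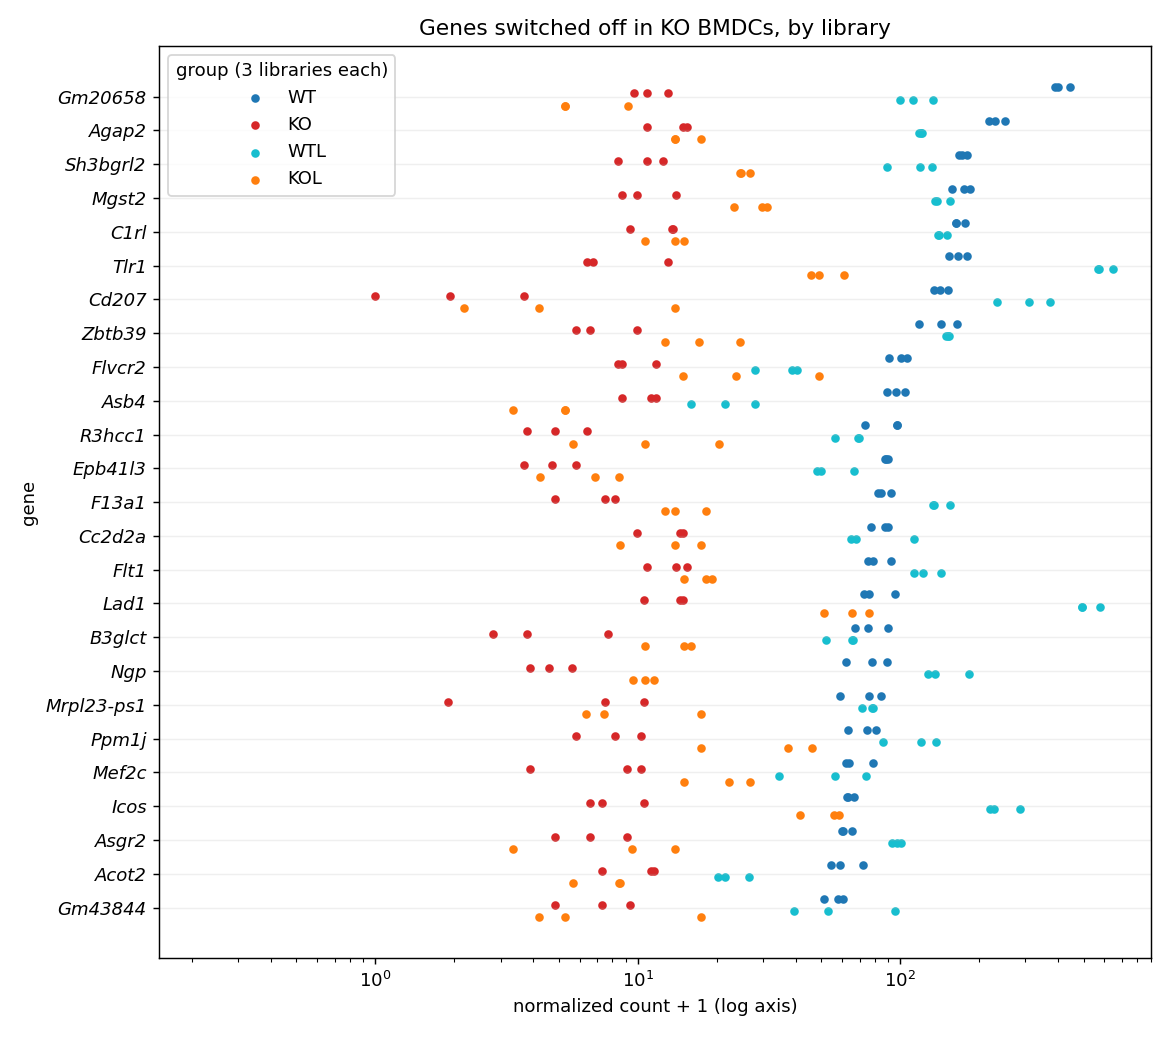
Normalized count + 1 of each of the 25 genes in every library (log axis), 3 points per group, in order of the WT mean. The KO points lie left of the WT points in every gene by the rule of choice, and the KOL points overlap the WTL points in Flvcr2 alone.

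**Figure D3:**
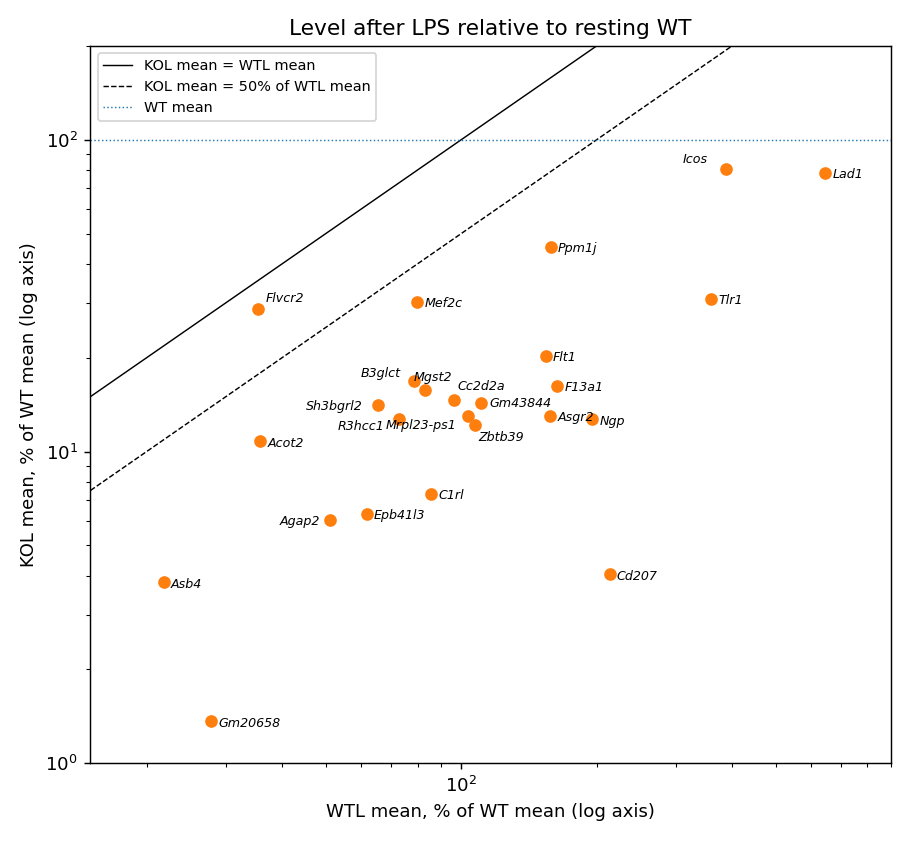
Mean level after LPS in KO cells against that in WT cells, each as a percentage of the untreated WT mean (both axes log), 1 point per gene and means of 3 libraries. Flvcr2 is the single gene above the line at 50% of WTL. Icos (80.7%) and Lad1 (78.5%) come closest to the untreated WT level, at 49.3% and 51.7% on TPM.

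Among genes of microbial sensing, Tlr1 (chr5:64924679-64933563) encodes the partner of TLR2 in the recognition of triacylated lipopeptides. It had 152, 179 and 165 normalized counts in the WT libraries and 5.38, 5.76 and 12 in the KO libraries. After LPS it had 649, 571 and 567 in WTL and 60.2, 48 and 44.8 in KOL. The mean with LPS was 3.60 times the untreated mean in WT cells and 6.60 times in KO cells, and every KOL library lay below every untreated WT library. The difference between KOL and WTL was -3.54 on the log2 scale (SE 0.14, edgeR adjusted p = 2.21e-10), with no overlap. Of its 3282 windows of 100 exonic bases, 7.89% also occur in Tlr6, so reads in these could be divided between the genes. Tlr6 itself had 295 ± 30.2 normalized counts in WT and 192 ± 6.41 in KO (SD, n = 3). Of 22 other Toll-like receptors and adaptors tested, 9 were lower and 3 higher in KO than in WT, and 8 were lower and 0 higher in KOL than in WTL. The falls in KO were at most 0.96 on the log2 scale, in Tlr13.

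Cd207 (chr6:83671215-83677857) encodes langerin, the lectin of Langerhans cells that forms Birbeck granules. Its normalized counts were 141, 152 and 134 in WT and 2.69, 0 and 0.926 in KO. They were 233, 309 and 371 in WTL and 12.9, 1.17 and 3.20 in KOL. KO held at most 3 rounded counts in a library, the floor used here, so no fold against KO is given. No KOL library reached the level of any WT or WTL library, and the mean of KOL was 1.89% of that of WTL, the lowest share among the 25 genes. The log2 fold change was -5.67 (SE 0.36, edgeR adjusted p = 1.74e-08). It was -7.02 without KOL replicate 1, which held most of the KOL reads. Over 41 other C-type lectin genes tested, 17 were lower and 16 higher in KO. Klrd1, a subunit of natural killer receptors that narrowly missed the WT limit, had 52.8 ± 8.26 normalized counts in WT and 0.32 ± 0.554 in KO, and Cd209a, a DC-SIGN homologue, 104 ± 5.81 and 27.5 ± 7.15. Asgr2 (chr11:70092644-70106187), a subunit of the asialoglycoprotein receptor and also a lectin, had 58.8 to 64.6 normalized counts in WT, 3.84 to 8.07 in KO, 92.5 to 99.8 in WTL and 2.34 to 12.9 in KOL, with a log2 fold change of KOL against WTL of -3.56 (SE 0.31, edgeR adjusted p = 3.68e-07).

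Icos (chr1:60977927-61000320) encodes a costimulatory receptor best known from activated T cells. The WT libraries held 61.5, 62.1 and 65.7 normalized counts and the KO libraries 6.28, 9.60 and 5.56. The WTL libraries held 219.8, 227 and 286 and the KOL libraries 54.8, 57.3 and 40.6. The KOL mean was 7.12 times the KO mean, the largest such ratio among 24 genes for which one is given, although KO and KOL overlapped on TPM, and 80.7% of the untreated WT mean. The WTL mean was in turn 3.87 times the WT mean, so KOL was 20.8% of WTL (log2 fold change -2.27, SE 0.16, edgeR adjusted p = 5.56e-08). Of 18 other costimulatory and checkpoint genes tested, 7 were lower and 2 higher in KO, and 8 were lower and 2 higher in KOL. Its ligand gene Icosl had 1099 ± 22.2 normalized counts in WT and 1187 ± 23.1 in KO.

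Complement, clotting and granule genes came next. C1rl (chr6:124493113-124510643), a serine protease related to complement C1r, is one of the more highly counted genes. In normalized counts, WT libraries stood at 162, 175 and 162 and KO libraries at 12.6, 12.5 and 8.34. With LPS, WTL stood at 149.7, 139.7 and 138 and KOL at 12.9, 14 and 9.61. WTL was 85.6% of WT, KO and KOL overlapped, and KOL was 8.55% of WTL (log2 fold change -3.54, SE 0.18, edgeR adjusted p = 1.59e-09). F13a1 (chr13:36867178-37050244), the A chain of coagulation factor XIII, had 81.3 to 91.6 normalized counts in WT, 3.84 to 7.18 in KO, 132 to 154 in WTL and 11.7 to 17.2 in KOL. All KOL libraries lay below all WT and WTL libraries, and above all KO libraries except on TPM.

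Ngp (chr9:110419747-110423012), neutrophilic granule protein, had 61.2 to 88.2 normalized counts in WT, 2.88 to 4.63 in KO, 127 to 182 in WTL and 8.60 to 10.5 in KOL, and its log2 fold change of KOL against WTL was -3.94 (SE 0.24, edgeR adjusted p = 1.17e-08). It belongs to a list of 7 neutrophil markers. The other 6 summed to 1057 to 1159 normalized counts in WT, 575 to 662 in KO, 1541 to 1798 in WTL and 1172 to 1395 in KOL. All 4 of these that could be tested, S100a8, S100a9, Mpo and Camp, were lower in KO, while the defining markers Ly6g and Elane averaged 2.34 and 2.61 in WT. The part of neutrophil content in the level of Ngp was not tested.

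Among receptors and transporters, Flt1 (chr5:147561604-147726011) encodes a receptor for VEGF. It had 74.6 to 90.9 normalized counts in WT, 9.87 to 14.4 in KO, 112 to 142 in WTL and 14 to 18.2 in KOL, so WTL lay above WT while KO and KOL overlapped. On TPM the WT and WTL values also overlapped, at 1.19 ± 0.15 and 1.29 ± 0.21 (SD, n = 3), as they did with scaling by total counts. Of 29 other genes of the FGF, PDGF and VEGF pathways tested, 6 were lower and 13 higher in KO.

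Flvcr2 (chr12:85746539-85813585) encodes a membrane transporter linked to haem and choline. It had 90.0, 105 and 99.4 normalized counts in the WT libraries and 10.8, 7.68 and 7.41 in the KO libraries. After LPS it had 37.8, 27.1 and 39.3 in WTL and 22.6, 48 and 13.9 in KOL. The KOL libraries were the most spread of its groups, with replicate 2 above every WTL library and replicate 3 below every one. The mean of KOL was 81.0% of that of WTL, but WTL was itself 35.4% of WT, and KOL was 28.7% of WT, or 19.5% on TPM. Without KOL replicate 2 the log2 fold change of KOL against WTL was -0.92 (edgeR adjusted p = 0.014), and without KOL replicate 3 it was 0.017 (edgeR adjusted p = 0.973). One library thus decides this value. Without KOL replicate 2 the KOL mean was 18.6% of WT and 2.12 times the KO mean, in place of 3.27 times.

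Enzymes made up another group. Mgst2 (chr3:51660360-51682677), a membrane enzyme that conjugates glutathione and can form leukotriene C4, had the highest TPM in WT of the 25 genes. Its normalized counts were 174, 156 and 184 in WT and 8.97, 7.68 and 13 in KO. They were 154, 138 and 135 in WTL and 30.1, 22.2 and 28.8 in KOL. LPS went with a lower level in WT, where the groups overlapped on TPM, and with a higher level in KO, and KOL was 19% of WTL (log2 fold change -2.38, SE 0.17, edgeR adjusted p = 4.32e-08). Gm37261, a TEC model overlapping it on the same strand without shared exonic bases, had 14 ± 2.44 normalized counts in WT and 1.26 ± 1.09 in KO. Of 29 other glutathione transferases and aldehyde dehydrogenases tested, 6 were lower and 13 higher in KO. The most raised, Gstt1, went from 9.92 ± 0.967 to 499 ± 29.0 normalized counts, the opposite direction to Mgst2.

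Ppm1j (chr3:104781056-104786018) encodes a serine/threonine phosphatase of the PP2C family. The WT libraries held 73.5, 79.7 and 62.2 normalized counts and the KO libraries 7.18, 4.80 and 9.26. The WTL libraries held 85, 136 and 119 and the KOL libraries 45.2, 16.4 and 36.3. KOL lay below WT and WTL without overlap and above KO except on TPM. It stood at 45.4% of WT, or 27.0% on TPM, and at 28.7% of WTL (log2 fold change -1.79, SE 0.28, edgeR adjusted p = 1.10e-04). Acot2 (chr12:83987861-83993873), a mitochondrial acyl-CoA thioesterase, had 53.6 to 71.3 normalized counts in WT, 6.28 to 10.6 in KO, 19.1 to 25.6 in WTL and 4.68 to 7.53 in KOL. The WTL mean was 35.8% of the WT mean, and its KOL mean was 30.1% of that of WTL. Of its exonic windows, 17.1% occur in the neighbouring paralog Acot1, which had 20.2 ± 6.11 normalized counts in WT and 9.59 ± 2.15 in KO, so both values are uncertain. B3glct (chr5:149678230-149762599), a glucosyltransferase that extends O-linked fucose on thrombospondin repeats, had 66.3 to 89 normalized counts in WT, 1.79 to 6.72 in KO, 51 to 65 in WTL and 9.68 to 14.9 in KOL. Its difference between KOL and WTL (log2 fold change -2.21, SE 0.28, edgeR adjusted p = 1.60e-05) missed the threshold with limma on TPM.

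Genes of signalling, transcription and protein turnover followed. Agap2 (chr10:127075284-127093169) encodes a GTPase-activating protein for Arf proteins that also binds phosphoinositide 3-kinase. In normalized counts, WT libraries stood at 218, 251 and 229.9 and KO libraries at 9.87, 14.4 and 13.9. With LPS, WTL stood at 117, 120.2 and 119 and KOL at 12.9, 16.4 and 12.8. The level in WTL was 51.1% of that in WT, KO and KOL overlapped, and the log2 fold change of KOL against WTL was -3.08 (SE 0.17, edgeR adjusted p = 3.99e-09). Asb4 (chr6:5383386-5433022) encodes a SOCS-box adaptor of ubiquitin ligases. It had 88.2, 103 and 95.1 normalized counts in the WT libraries and 10.8, 7.68 and 10.2 in the KO libraries. After LPS it had 27, 20.6 and 14.9 in WTL and 4.30, 2.34 and 4.27 in KOL. It was one of 2 genes whose KOL libraries all lay below KO, and in WT cells too the WTL mean was 21.8% of the untreated mean (log2 fold change of KOL against WTL -2.44, SE 0.36, edgeR adjusted p = 6.94e-05).

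Zbtb39 (chr10:127739538-127747349), a zinc finger protein with a BTB domain, shares 74 exonic bases, 1.24% of its own, with Gpr182 on the opposite strand. Its normalized counts were 117, 142 and 163 in WT and 8.97, 4.80 and 5.56 in KO. They were 148, 153 and 151 in WTL and 16.1, 11.7 and 23.5 in KOL. Its WT and WTL libraries overlapped and KOL lay above KO, both of which changed on TPM and on total counts, where WTL lay below WT and KOL overlapped KO. KOL came to 11.4% of WTL (log2 fold change -3.12, SE 0.22, edgeR adjusted p = 4.57e-08). Mef2c (chr13:83504034-83667080), a MADS-box transcription factor, had 61.2 to 78.1 normalized counts in WT, 2.88 to 9.26 in KO, 33.6 to 72.8 in WTL and 14 to 25.7 in KOL. After Flvcr2 it had the smallest difference between KOL and WTL, -1.39 on the log2 scale (SE 0.33, edgeR adjusted p = 0.00323), and the KOL mean was 37.8% of that of WTL.

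The last protein-coding genes have roles in cell structure or are little studied. Lad1 (chr1:135818598-135833342) encodes ladinin, an actin-associated protein first found at anchoring filaments. The WT libraries held 75.3, 94.8 and 71.7 normalized counts and the KO libraries 13.5, 9.60 and 13.9. The WTL libraries held 491, 491 and 575 and the KOL libraries 75.3, 64.4 and 50.2. The WTL mean was 6.44 times the WT mean, the largest such ratio of the 25 genes, and the KOL mean was 5.14 times the KO mean. KOL thus came to 78.5% of untreated WT, or 51.7% on TPM, and to 12.2% of WTL (log2 fold change -3.04, SE 0.15, edgeR adjusted p = 1.20e-09). Epb41l3 (chr17:69075683-69289989) encodes a protein that links membrane proteins to the cytoskeleton. In normalized counts, WT libraries stood at 87.3, 86.4 and 89 and KO libraries at 2.69, 4.80 and 3.71. With LPS, WTL stood at 47.2, 48.7 and 65.9 and KOL at 3.23, 5.85 and 7.47. WTL lay below WT, KO and KOL overlapped, and the log2 fold change of KOL against WTL was -3.27 (SE 0.28, edgeR adjusted p = 4.12e-07).

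Sh3bgrl2 (chr9:83548327-83638801) encodes a small protein with a thioredoxin-like fold. It had 166, 171 and 179 normalized counts in the WT libraries and 9.87, 11.5 and 7.41 in the KO libraries. After LPS it had 131, 118 and 88.3 in WTL and 23.7, 25.7 and 23.5 in KOL. LPS went with a lower level in WT and a higher one in KO, which left KOL at 21.6% of WTL (log2 fold change -2.20, SE 0.18, edgeR adjusted p = 2.67e-07). R3hcc1 (chr14:69697307-69707584) is named for its R3H and coiled-coil domains. Its normalized counts were 72.6, 96.4 and 95.9 in WT and 5.38, 3.84 and 2.78 in KO. They were 68.8, 68.2 and 55.3 in WTL and 19.4, 4.68 and 9.61 in KOL. KOL replicate 1 was the highest of the KOL libraries and the groups KO and KOL overlapped, while KOL was 17.5% of WTL (log2 fold change -2.48, SE 0.32, edgeR adjusted p = 2.35e-05, and -3.12 without KOL replicate 1). Cc2d2a (chr5:43662346-43740972), a protein of the ciliary transition zone, had 76.3 to 89.1 normalized counts in WT, 8.97 to 13.9 in KO, 63.8 to 112 in WTL and 7.53 to 16.4 in KOL, and neither genotype showed a separation between untreated and LPS-treated libraries.

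Gm20658 (chr12:116102769-116138648), the antisense gene, had the highest WT count of the 25 genes. The WT libraries held 442, 388 and 398 normalized counts and the KO libraries 9.87, 8.64 and 12. The WTL libraries held 111, 98.6 and 132 and the KOL libraries 4.30, 8.19 and 4.27. The WTL mean was 27.8% of the WT mean, and KOL lay below KO without overlap (log2 fold change of KOL against WTL -4.34, SE 0.23, edgeR adjusted p = 3.03e-09). It lies opposite Vipr2, with no shared exonic bases. Vipr2 had 14.3 ± 0.434 normalized counts in WT and 5.26 ± 2.67 in KO. The libraries' strand setting in RSEM is not given in the sources used here, so reads from Gm20658 and Vipr2 cannot be told apart with certainty.

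Mrpl23-ps1 (chr2:74591330-74591909) had 57.9 to 83.9 normalized counts in WT, 0.897 to 9.60 in KO, 70.4 to 77.6 in WTL and 5.34 to 16.4 in KOL. Its log2 fold change of KOL against WTL was -3.005, and -3.64 without KOL replicate 2. Of its 481 windows of 100 exonic bases, 91.7% are also in its parent Mrpl23, a mitochondrial ribosomal protein gene on chromosome 7. Mrpl23 itself went from 251 ± 20.8 normalized counts in WT to 29.9 ± 1.89 in KO (log2 fold change -3.06, SE 0.24, edgeR adjusted p = 1.17e-07) and was lower in KOL than in WTL (-2.61, SE 0.23, edgeR adjusted p = 3.98e-07). Reads of the 2 genes could have been divided between them, and how much of the count belongs to the pseudogene was not tested. Gm43844 (chr6:17914996-17920600) had 50.3 to 59.7 normalized counts in WT, 3.84 to 8.34 in KO, 38.3 to 94.4 in WTL and 3.20 to 16.4 in KOL, and lies within St7 on the same strand, sharing no exonic bases. Its log2 fold change of KOL against WTL was -2.94, and -3.97 without KOL replicate 2. St7 had 325 ± 29.2 normalized counts in WT and 380 ± 16.3 in KO.

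In all, 10 of the 25 genes are overlapped by another annotated gene, 3 of them on the same strand (Gm43844, Icos and Mgst2). Exonic bases are shared by 2, F13a1 and Zbtb39, with 74 bases each, and Gm30489, the gene opposite F13a1, was listed at 0 in every WT and KO library. Both overlaps are on opposite strands, and with the strand setting not given, reads in these bases cannot be assigned with certainty. Windows of 100 bases are shared with another gene by 3 (Acot2, Mrpl23-ps1 and Tlr1). Close to the limits, Gm43844 entered with a lowest WT count of 60 and Agap2, Cc2d2a and Flt1 with a highest KO count of 15. Just outside, Matn2 and Scml4 had a lowest WT count of 58.0, and Abhd14b had a highest KO count of 15.2.

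The genome around the 25 genes was then read, since CTCF is a boundary factor. Within 100 kb of a member lay 72 other tested genes, beside 21 of the 25. Genes past both limits of the rule, C1ra and Ereg among them, were not counted as neighbours. In KO against WT, 20 of these (27.8%) were lower and 10 (13.9%) higher at an adjusted p under 0.05 and a fold above 1.3, against 17.2% and 17.3% of all genes tested (edgeR quasi-likelihood test). Without the 4 that overlap a member, 17 of 68 (25%) were lower. Acot1 and Tlr6 are among these 17, and they share exonic windows with the members Acot2 and Tlr1, so their counts are uncertain. The median log2 fold change of the 72 was near that of all genes, -0.0017 against -0.014. A lower neighbour lay beside 13 of the members. In KOL against WTL, 12 of the 72 (16.7%) were lower and 9 (12.5%) higher by the 1.5-fold rule, near the 12.5% of all genes tested in each direction.

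The neighbour with the firmest change was Rhoc, which lies 2357 bases from Ppm1j. Rhoc had 661, 764 and 788 normalized counts in WT, 77.2, 72 and 78.7 in KO, 1439, 1890.3 and 2079.7 in WTL and 514, 393 and 501 in KOL. As with Ppm1j, KO lay far below WT, and KOL lay between KO and untreated WT without overlap. The log2 fold change of KO against WT was -3.28 (SE 0.16, edgeR adjusted p = 7.82e-10). The promoter window of Ppm1j holds the CTCF core printed above, a match found in 3.29% of tested genes with a promoter entry. Its part in these levels was not tested. The other 5 of the 6 largest changes were in genes of low count: Gm37261 (-3.37) at Mgst2, Tnnt2 (-2.50) at Lad1, 5830462I19Rik (-2.33) at Ngp, Tafa3 (-2.32), which overlaps Ppm1j on the opposite strand, and Arhgef25, higher by 2.05, at Agap2.

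**Figure D4:**
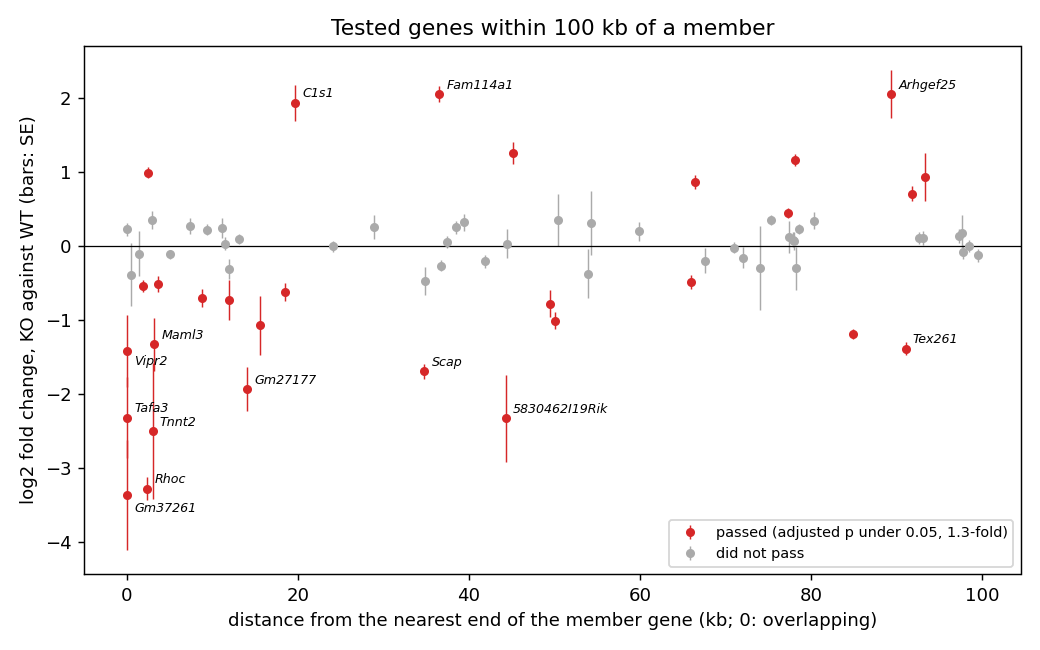
Log2 fold change in KO against WT (y axis, bars for the SE) of the 72 tested genes within 100 kb of one of the 25 genes, against the distance in kb. Genes past both limits of the rule are left out. Red points passed the test, 20 lower and 10 higher, and Rhoc at 2357 bases has the largest change among the well counted genes.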

How the data were processed

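RNA-seq libraries of 4 groups of 3, grouped by genotype and treatment in the labels, were analysed from the files the authors deposited. The authors aligned reads to mm10 with STAR 2.5.1 (submitters' processing notes) and used RSEM to quantify genes. The deposited values per gene are an expected count, which is RSEM's estimated count, a TPM scaled to a common sum that keeps no depth, and an effective length, which was not tested. The paper's methods name a stranded poly(A) kit, whereas rRNA depletion is given in the labels, and the strand setting of RSEM is not given in the sources used here.

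Expected counts were rounded and normalized with TMM, genes were filtered with filterByExpr (14008 kept), and edgeR 4.0.16 in R 4.3.3 (glmQLFit and glmQLFTest) was run on all 12 libraries in one fit, with Benjamini-Hochberg adjustment over all genes tested, a threshold of 0.05, and folds of 1.5 for KOL against WTL and 1.3 for KO against WT. WT and KO chose the genes, so KOL against KO and WTL against WT are given without a test. Totals of 12769767 to 16586291 counts per library set the precision, and 3 counts were taken as the floor. The members and lists were chosen with earlier results of these data known. All 25 genes are named, and values by library are given for the 12 with the highest WT mean and for those whose 3 KOL libraries exceed KO with a mean at least 4 times as high and at least 30 normalized counts. Neighbours named are the 6 of largest change. Positions and overlaps are from GENCODE M21 on mm10. Alternatives were DESeq2 1.42.0, limma 3.58.1 on the log2 scale of TPM with a pseudocount of 1 or 0.1, other filters, limits, scalings and distances, the replicate block, and leaving out each replicate. The edgeR fit was tested on simulated data first.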

Additional observations from a re-analysis of the deposited data

Results flagged for a closer look

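In 4 of the 25 genes all WTL libraries lay below all WT libraries while all KOL libraries lay above all KO libraries, so LPS went with opposite directions in the genotypes. The same order held for 1.26% of all 14008 genes tested, and on TPM, an alternative added after seeing the data, 2 of the 4 kept it, Sh3bgrl2 and B3glct. The rule took genes with high WT and low KO counts, which by itself favours this order. The share over all genes is therefore no measure for the 4. The difference between the log2 ratio of KOL to KO and that of WTL to WT was 1.95 for Sh3bgrl2 (1.34 and -0.61), 1.72 for Mgst2 (1.45 and -0.27), 3.21 for Flvcr2 (1.71 and -1.50) and 2.12 for B3glct (1.78 and -0.35). These differences were not tested, since the WT and KO libraries also chose the genes, and in KO the ratios start from counts of at most 15. For Flvcr2 the difference was 2.58 without KOL replicate 2, the highest of its KOL libraries at 48.0 normalized counts.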

How the results depend on the processing

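The count of genes lower in KOL than in WTL, 24 of 25, was 20 to 24 with DESeq2, other normalization, edgeR on the 6 libraries, no filter on low counts, no fold cutoff or limma, and 24 to 25 when a replicate was left out. A filter of at least 10 counts in every library left 3 genes to test, all 3 of them lower. With the replicate number as a block the count was also 24. Libraries of one number did not deviate together, compared between genotypes and between untreated and LPS-treated groups (correlations of -0.325 to 0.126), so the numbers were not taken as pairs, and the block changed no call of the named genes. Between libraries of different numbers the correlations ran from -0.306 to 0.367, the highest for WTL replicate 1 and KOL replicate 2. A block by number does not cover such pairs. Over single genes, Flvcr2 turned to 0.017 without KOL replicate 3 and passed at -0.92 without KOL replicate 2 (-0.92 to 0.017 over its alternatives), and B3glct missed the threshold with limma at -0.80 and -0.37 (limma adjusted p = 0.103 and 0.0949). The number of genes chosen was 2 with limits of 100 and 10 counts, 80 with limits of 40 and 20, 22 on normalized counts and 27 to 32 without a replicate. Genes with KOL above KO numbered 6 on TPM, 10 on total counts and 12 to 16 without a replicate. Genes at 50% or more of WTL numbered 2 on TPM. Genes with WTL above WT numbered 5 on total counts and 5 on TPM, and those with WTL below WT 14 and 13, both scalings chosen after seeing the data. Lower neighbours numbered 16 within 50 kb, 31 within 250 kb, 17 with DESeq2 or the block and 16 to 18 without a replicate. Higher neighbours numbered 4 within 50 kb, 34 within 250 kb, and 8 to 11 without a replicate. The causes were not tested, beyond the change in genes, distances or limits that the settings make. At this depth, counts of 15 or fewer carry wide counting error, so ratios between KO and KOL are imprecise.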
